A study of Homo sapiens with 24 samples.

Results

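The effect of a BET inhibitor on top of a SYK inhibitor was assessed in the diffuse large B-cell lymphoma line SU-DHL-4, by comparing cells exposed to Entospletinib plus AZD5153 (Ento+AZD) with cells exposed to Entospletinib alone (Ento). All genes of the array were compared, and the comparison rests on 6 of the 24 Clariom D arrays of the study, 3 per group. Clariom D is a whole-transcriptome microarray, and the values are log2 expression levels. SU-DHL-4 is an established line of the germinal centre type, and 1 line stands here for the disease. Ento was given at 1 µM and AZD at 0.01 µM for 72 h, and both groups compared contained Ento, so that AZD was the only agent that differed. The 6 SU-DHL-4 arrays with AZD alone or with the solvent DMSO enter that estimate. Their values, and those of the 6 DG-75 arrays with Ento+AZD or Ento, are used for reference. DG-75 is a Burkitt lymphoma cell line and received the same doses for the same time. What the replicate numbers stand for is not stated in the sources used here, so the p-values measure only the spread between the arrays of a fit.

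BET proteins bind acetylated histones through their bromodomains and help RNA polymerase II to leave the promoter, and AZD is a bivalent inhibitor that occupies both bromodomains of a BET molecule. SYK is the kinase that passes the signal of the B-cell receptor into the cell, and Ento blocks it. In lymphoid cells, transcription factors such as MYC and MYB and the genes of the cell cycle are known to respond to BET inhibition.

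With AZD added to Ento, most of the genes that passed the test were lower. Of 25575 rows, 21 met both an adjusted p below 0.05 and a more than 2-fold difference, which is 0.0821% of all rows, and such rows are referred to as called. Among them, 18 were lower with AZD (0.0704%) and 3 were higher (0.0117%). The lower genes included the transcription factor MYB, the cell cycle phosphatase CDC25A, the replication helicase subunit MCM5, the cystine transporter SLC7A11 and the G protein subunit GNB3. The highest fold change among the 3 higher genes belonged to TARS3, a threonyl-tRNA synthetase. In a wider view, 1700 rows were lower at an unadjusted p under 0.05 (6.65%) and 774 were higher (3.03%). Among the 12787 rows above the median level, the shares were 9.87% lower and 1.86% higher. The median change was -0.02 on the log2 scale over all rows and -0.06 over the rows above the median level.

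The call of these 21 genes was close to the threshold. Their adjusted p lay between 0.0451 and 0.050 in limma with the replicate number as a block, and no row of the table reached a smaller value. Without the replicate block, 0 rows were called, although 2001 had an unadjusted p under 0.05. The count was also 0 without replicate 1 or 3 of Ento, any 1 Ento+AZD array, AZD replicate 3 or DMSO replicate 3, and it was 9 without DMSO replicate 1, 33 without AZD replicate 2 and 75 without DMSO replicate 2. Arrays with the same replicate number deviated together, with correlations of 0.154, 0.394 and 0.249 between Ento and Ento+AZD, and the blocked comparison is therefore the one reported. In 19 of the 21 rows the groups did not overlap, MYB and MNS1 being the exceptions, which the choice of these rows on the same 6 arrays largely fixes. Over all rows, the Ento+AZD arrays lay below all Ento arrays in 7.15% and above them in 5.6%.

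**Figure D1:**
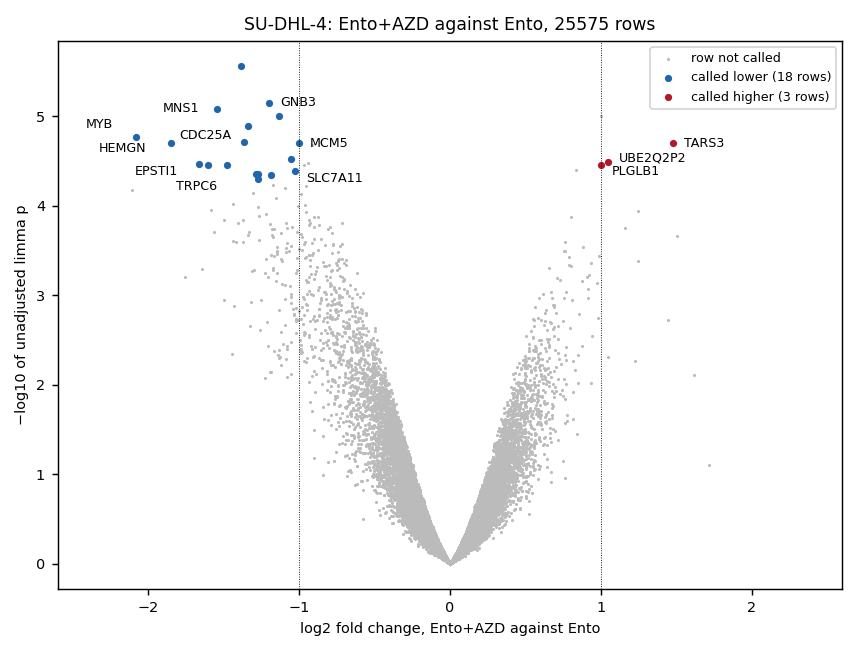
Log2 fold change of Ento+AZD against Ento in SU-DHL-4 (x axis) against -log10 of the unadjusted limma p (y axis) for 25575 rows, with called rows in colour and dotted lines at a fold change of 2. The 18 called lower rows lie on the left and the 3 called higher rows on the right, and 121 of the 133 rows outside the dotted lines are on the lower side.

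The upstream sequences of 4 genes with lower values are shown, of which CDC25A, MYB and GINS2 are members of gene lists described below and DTL is in none of the lists. CDC25A and MYB were called. DTL is a substrate receptor of the ubiquitin ligase that degrades licensing factors in S phase, and GINS2 is a subunit of the replicative helicase. Both were among the 10 uncalled lower genes with the smallest p of those changed more than 2-fold and lower in all same-numbered pairs. Each sequence covers the 250 bases before the RefSeq gene start in the build GRCh38.p14, 5′ to 3′ on the strand of the gene. CDC25A lies at chr3:48188418-48188667 on the minus strand, MYB at chr6:135181058-135181307 on the plus strand, DTL at chr1:212035498-212035747 on the plus strand and GINS2 at chr16:85688955-85689204 on the minus strand. Capitals mark matches, on either strand, to the CCAAT box (CCAAT) and to 2 forms of the E2F motif (TTCCCGC and TTTGGCG).
CDC25A: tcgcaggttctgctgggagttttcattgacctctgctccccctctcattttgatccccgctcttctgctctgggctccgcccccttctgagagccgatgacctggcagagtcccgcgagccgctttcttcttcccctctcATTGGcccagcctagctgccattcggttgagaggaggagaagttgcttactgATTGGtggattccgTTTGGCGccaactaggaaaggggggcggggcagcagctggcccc
MYB: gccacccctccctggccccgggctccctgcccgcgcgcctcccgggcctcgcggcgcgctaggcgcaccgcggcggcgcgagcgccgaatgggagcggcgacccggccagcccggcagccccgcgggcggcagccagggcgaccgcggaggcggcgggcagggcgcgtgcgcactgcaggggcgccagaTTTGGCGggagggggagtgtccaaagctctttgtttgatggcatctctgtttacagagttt
DTL: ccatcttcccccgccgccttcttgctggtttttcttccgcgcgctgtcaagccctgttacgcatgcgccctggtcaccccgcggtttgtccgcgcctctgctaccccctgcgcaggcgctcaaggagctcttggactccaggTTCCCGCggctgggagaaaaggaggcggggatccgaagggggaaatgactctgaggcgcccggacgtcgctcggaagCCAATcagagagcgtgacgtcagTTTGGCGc
GINS2: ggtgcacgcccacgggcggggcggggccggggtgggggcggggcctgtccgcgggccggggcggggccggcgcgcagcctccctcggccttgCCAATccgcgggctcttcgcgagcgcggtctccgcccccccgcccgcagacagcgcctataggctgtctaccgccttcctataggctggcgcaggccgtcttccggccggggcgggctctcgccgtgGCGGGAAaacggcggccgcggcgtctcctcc

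CDC25A held 2 CCAAT boxes and 1 TTTGGCG match, and MYB held 1 TTTGGCG match. DTL held 1 match to each of the 3 motifs, and GINS2 held 1 CCAAT box and 1 TTCCCGC match. Over all 27305 promoters of the same length, TTCCCGC occurred in 5.46%, TTTGGCG in 1.6% and CCAAT in 32.9%. Promoters were found for 28 of the 32 genes of the replication list, and 8 of them (28.6%) held TTCCCGC, 6 (21.4%) held TTTGGCG and 15 (53.6%) held CCAAT. Of the 18 called lower genes, 13 had a promoter in the table, with TTCCCGC in 3, TTTGGCG in 2 and CCAAT in 2. MNS1, HEMGN and KIAA0040 were the called genes with TTCCCGC. The form TTTGGCG was added after the sequences had been read. The E-box CACGTG occurred in 1 of the 13 promoters (7.69%, against 6.33% of all promoters), that of PRDM15. The ATF4-type motif TGATGNAA was found in 1 (7.69%, against 3.26%), that of DOCK10. The element TTTGAA, known from late cell cycle genes, was found in 0 of the 13 and in 6 of the 20 promoters of the mitotic kinase list (30%, against 13.7%). The TTCCCGC and TTTGGCG forms may overlap in a sequence. A match is a stretch of letters only and does not show that a factor binds there.

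MYB, a transcription factor needed for the growth of blood cell precursors, had the largest fold change of the called genes. MYB levels were 6.76, 5.33 and 7.42 on the Ento arrays and 4.64, 3.24 and 5.39 on the Ento+AZD arrays. The groups overlapped, because the second Ento array was lower than the third Ento+AZD array, but every same-numbered pair differed by about the same amount. The log2 fold change was -2.08 (SE 0.31, adjusted p = 0.0451), a 4.23-fold lower level. In the same family MYBL2 had a log2 fold change of -0.59 (adjusted p = 0.202) and MYBL1 of 0.27 (adjusted p = 0.783).

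CDC25A, the phosphatase that activates cyclin-dependent kinases at the entry into S phase, had levels of 6.64, 5.59 and 7.0 with Ento and 5.06, 4.54 and 5.55 with Ento+AZD. All Ento+AZD arrays were below all Ento arrays, although the third Ento+AZD array came close to the second Ento array. The log2 fold change was -1.36 (SE 0.20, adjusted p = 0.0451). MCM5, a subunit of the ring-shaped helicase that is loaded on replication origins, gave 9.28, 9.07 and 9.58 with Ento and 8.34, 8.05 and 8.53 with Ento+AZD. Here the groups were clearly separated, and the fold change was just above the limit at -1.0 (SE 0.15, adjusted p = 0.0451). MNS1, a structural protein of cilia and sperm flagella, gave 6.0, 4.81 and 6.47 with Ento and 4.28, 3.12 and 5.25 with Ento+AZD. Its groups overlapped as those of MYB did, and its log2 fold change was -1.55 (SE 0.21, adjusted p = 0.0451).

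Genes of signalling and transport were also among those called. GNB3, a beta subunit of heterotrimeric G proteins, gave 8.12, 8.01 and 7.95 with Ento and 7.26, 6.64 and 6.6 with Ento+AZD. The 3 Ento arrays were close together and above all Ento+AZD arrays, and the log2 fold change was -1.20 (SE 0.16). TRPC6, a calcium-permeable channel, gave 6.93, 6.90 and 6.41 with Ento and 5.49, 5.07 and 5.25 with Ento+AZD. On the DMSO arrays it lay at 5.41, 5.55 and 4.34, so that the levels with Ento+AZD lay in the range of DMSO while those with Ento alone were above it. CHRNA6, a subunit of nicotinic acetylcholine receptors, had the same order, with 6.61 to 6.83 for Ento, 5.10 to 5.61 for Ento+AZD and 5.30 to 5.90 for DMSO. The long non-coding RNA ROCR lay at 6.29 to 6.86 with Ento, at 4.99 to 5.92 with Ento+AZD and at 5.42 to 5.85 with DMSO. The Ento arrays that define the call are the same ones that stand above DMSO here, and the order is a description of these values. DOCK10, a guanine nucleotide exchange factor, had a log2 fold change of -1.28 (adjusted p = 0.050).

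SLC7A11, which imports cystine for glutathione synthesis, showed another order. Its levels were 7.21, 6.84 and 6.99 with Ento and 6.01, 5.94 and 6.01 with Ento+AZD, against 7.62 to 8.02 with DMSO and 6.58 to 7.18 with AZD alone. Each agent alone thus gave lower arrays than DMSO, and the arrays with both agents were the lowest of the 4 groups. The log2 fold change of Ento+AZD against Ento was -1.03 (SE 0.17, adjusted p = 0.0464).

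EPSTI1 and PARP9, both known to be induced by interferon, fell by 1.66 and 1.61 on the log2 scale (adjusted p = 0.0451 each). PARP9 lay at 7.47, 6.12 and 7.18 with Ento and at 5.47, 5.32 and 5.16 with Ento+AZD. The Ento+AZD arrays were close together, while the second Ento array stood apart from the other two. EPSTI1 lay at 5.95, 4.76 and 5.75 with Ento and at 4.20, 3.50 and 3.78 with Ento+AZD. A separate list of 26 interferon-stimulated genes, which holds neither of them, had a median of -0.07 and 0 called members, with 2 lower (7.69%) and 1 higher at an unadjusted p under 0.05, beside 6.65% and 3.03% of all rows. OAS2, which activates RNase L, had the smallest p of this list with a log2 fold change of -0.60 (adjusted p = 0.324). For AZD against DMSO, without Ento, the list had a median of -0.23, beside -0.08 over all rows. There, 8 of its 26 members were lower at an unadjusted p under 0.05, beside 11.5% of all rows with either sign.

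Further called lower genes were HEMGN, a nuclear protein of blood-forming cells (-1.85), PRDM15, a zinc finger factor (-1.29), XACT, a long non-coding RNA of the X chromosome (-1.27), CHI3L2, a chitinase-like protein (-1.18), and KIAA0040 (-1.05). KIAA0040 lay at 10.53, 9.98 and 10.40 with Ento and 9.44, 9.29 and 9.02 with Ento+AZD. XACT lay at 3.93 to 4.08 with Ento and 2.5 to 3.11 with Ento+AZD. Whether such low values, and those of EPSTI1 with Ento+AZD and TARS3 with Ento, are above background was not tested.

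TARS3 gave 3.84, 4.51 and 3.76 with Ento and 5.33, 5.81 and 5.39 with Ento+AZD, and all arrays with AZD were above those without. Its log2 fold change was 1.48 (SE 0.22, adjusted p = 0.0451), a 2.78-fold higher level. The other called higher rows were the pseudogene UBE2Q2P2 (1.05, SE 0.17) and 1 of the rows of PLGLB1, a plasminogen-like gene (1.00, SE 0.16). The row of PLGLB1 with the higher mean had 0.99 and an adjusted p of 0.0830. UBE2Q2P2 and PLGLB1 have near-identical copies in the genome, and probes could read several of them. TARS3, UBE2Q2P2 and the PLGLB1 row were each called in 4 of 10 other ways of computing, and none of them without the second Ento array, which left 23 calls, 9 of them shared.

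**Figure D2:**
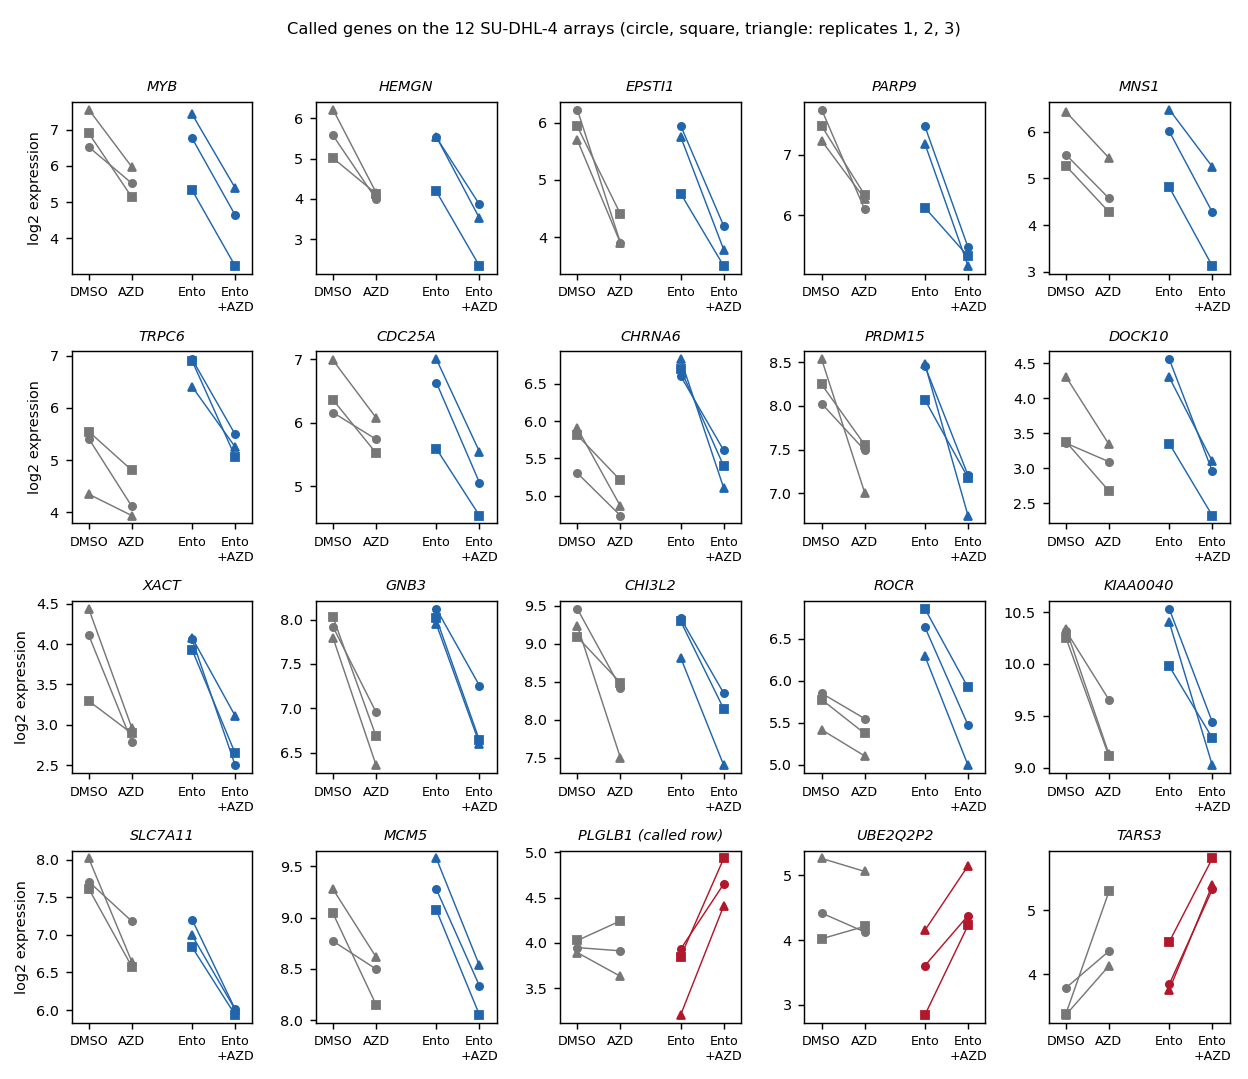
Log2 expression (y axis) of called genes on the 12 SU-DHL-4 arrays by treatment (x axis), with lines joining arrays of the same replicate number and a separate y axis in each panel. The lines from Ento to Ento+AZD go down in each panel of a lower gene and up for PLGLB1, UBE2Q2P2 and TARS3. With Ento and with Ento+AZD, the second replicate (squares) of MYB, MNS1 and CDC25A lies below the others.

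Outside the calls, 5 rows passed the adjusted p alone, for a total of 26 rows (0.102%) at any fold change. JUN, an AP-1 transcription factor, was among them with -0.97, as were SHISAL2A with -0.92, TSPOAP1-AS1 with -0.94 and DCXR, a sugar reductase, with 0.83. The fifth, FLACC1, was higher and stayed just under the fold change limit. The largest decrease of the table was that of RASSF6, a Ras association domain protein, which was not called. RASSF6 lay at 6.32, 4.79 and 7.05 with Ento and at 4.65, 3.09 and 4.09 with Ento+AZD, with a log2 fold change of -2.11 (SE 0.36, adjusted p = 0.0576). Other lower genes next to the threshold were the G protein regulator RGS9 (-1.17), the DNA break sensor PARP2 (-1.09), the amidase NTAN1 (-1.31), the adhesion molecule JAML (-1.15), DTL (-1.44), FAM83D (-1.0), GINS2 (-1.27), CHAF1B (-1.58) and WDR76 (-1.22), with adjusted p between 0.0551 and 0.0749.

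Only 9 further rows had a change above 1 in the higher direction. Those with the smallest p were the antisense transcripts LYRM4-AS1 (1.25, adjusted p = 0.0749) and RAP2C-AS1 (1.16, adjusted p = 0.0749). Whether their probes read the strand of the gene opposite was not tested. LYRM4-AS1 gave 5.85, 6.08 and 4.92 with Ento and 7.04, 7.01 and 6.54 with Ento+AZD, without overlap. C9orf57 followed with 1.51 (adjusted p = 0.0780) and LCA5L with 1.24 (adjusted p = 0.0839). With Ento they lay at 2.70 to 2.88 and at 1.58 to 1.66, and whether such values are above background was not tested. MicroRNA rows were 3 of this group, MIR186 (1.23), MIR548AU (1.62) and MIR548AI (1.71), with adjusted p from 0.234 to 0.591. Whether such rows measure a mature microRNA or its precursor was not tested. The other members were TASOR2 (1.44) and ADCY10P1 (1.05).

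Most cell cycle genes had lower values with AZD in same-numbered pairs, and few of them passed the threshold. The lists counted together were those of replication, chromatin assembly, nucleotide synthesis, histones, cyclins with their kinases, mitotic kinases, kinesins, centromere, and Fanconi and homologous recombination genes. Over these 9 lists with 190 distinct measured genes, 186 had a change below 0, beside 53.9% of all rows, and 143 (75.3%) were lower at an unadjusted p under 0.05, beside 6.65% of all rows. None was higher at that level. All 3 same-numbered differences were negative for 173 genes (91.1%), beside 21.5% of all rows. Yet the 3 Ento+AZD arrays lay below all 3 Ento arrays for only 11 genes (5.79%), beside 7.15% of all rows. CDC25A and MCM5 were the 2 genes called of the 190, beside 0.0821% of all rows. The median change was -0.73, against -0.02 over all rows. The E2F, CDK inhibitor and centrosome lists were left out of this count and were less uniform. With them, 219 of 234 genes in 12 lists had a change below 0, 195 (83.3%) were negative in all pairs, 160 (68.4%) were lower at an unadjusted p under 0.05, 3 were called and the median was -0.66.

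The arrays of the groups differed in the list means. The 32 genes of origin licensing and the replication fork averaged 8.19, 7.29 and 8.46 on the Ento arrays and 7.33, 6.38 and 7.66 on the Ento+AZD arrays. Replicate 2 was the lowest in both groups, and its Ento array was as low as the first Ento+AZD array. On the DMSO arrays the same mean was 7.88, 8.09 and 8.5, and on the AZD arrays 7.49, 7.34 and 7.93. Within pairs, the median change of the list was -0.88, -1.03 and -0.82. Without replicate 2 the median change was -0.88 in place of -0.92, and 3 genes of the whole table were called.

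**Figure D3:**
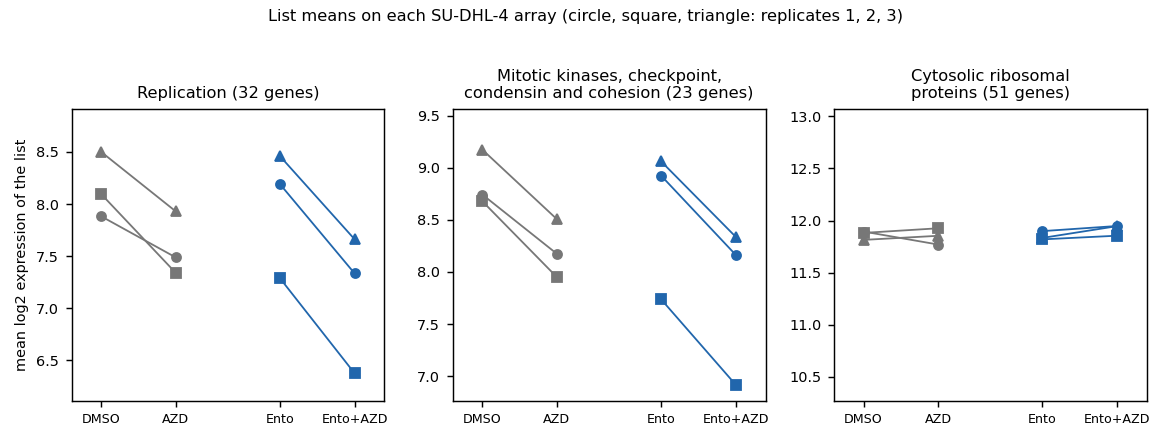
Mean log2 expression of 3 gene lists (y axis, same span in each panel) on the 12 SU-DHL-4 arrays by treatment (x axis), with lines joining arrays of the same replicate number. The replication and mitotic lists go down by a similar amount in all 3 pairs from Ento to Ento+AZD, replicate 2 being lowest, and the ribosomal protein list stays between 11.77 and 11.95.

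Of the replication list, 28 of 32 genes were lower at an unadjusted p under 0.05 and 1 was called, beside 6.65% and 0.0821% of all rows. ORC1, a subunit of the complex that marks origins, lay at 8.13, 7.16 and 8.62 with Ento and at 6.81, 5.59 and 7.51 with Ento+AZD, a log2 fold change of -1.33 (adjusted p = 0.0762). The sliding clamp PCNA lay at 10.03, 9.09 and 10.54 with Ento and at 9.16, 7.83 and 9.5 with Ento+AZD (-1.06, adjusted p = 0.119). Both showed overlapping groups and a lower value with Ento+AZD in each pair. The clamp loader subunit RFC4 (-0.81, adjusted p = 0.0749) was separated between the groups, with 9.52 to 10.35 against 8.75 to 9.49.

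The 7 genes that assemble chromatin behind the fork or copy its methylation were all lower at an unadjusted p under 0.05, with a median of -0.86. CHAF1B, a subunit of the histone chaperone CAF-1, lay at 7.21, 6.11 and 7.42 with Ento and at 5.68, 3.99 and 6.31 with Ento+AZD (-1.58, adjusted p = 0.0749). UHRF1, which reads hemimethylated DNA, had -1.18 (adjusted p = 0.0749) and CHAF1A had -1.05 (adjusted p = 0.0789). Of 10 genes of nucleotide synthesis, 6 were lower at this level, among them thymidine kinase TK1 (-1.20), the ribonucleotide reductase subunits RRM1 (-0.99) and RRM2 (-1.22) and thymidylate synthase TYMS (-1.32). For replication-dependent histones the numbers were 32 of 47, with a median of -0.53, and probes for these genes may read several near-identical copies. H2AC4 had the largest decrease of the histones named, at -1.50 (adjusted p = 0.0749).

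Among 16 cyclins, their kinases and CDC25 phosphatases, 12 were lower at an unadjusted p under 0.05, with a median of -0.76. Cyclin A2 (CCNA2) lay at 10.72, 9.29 and 10.92 with Ento and at 9.72, 8.0 and 9.66 with Ento+AZD (-1.19, adjusted p = 0.0826). CDK2, its partner kinase, had -1.07 (adjusted p = 0.0817), and the mitotic inhibitor kinase WEE1 had -1.0 (adjusted p = 0.0817). CDK4 and CDK6, the kinases of early G1, had smaller values of -0.48 and -0.32. The E2F list, which also holds TFDP1, TFDP2, RB1, RBL1 and RBL2 beside the E2F genes, was divided. Its median over 13 members was -0.15. It was -0.39 without the second Ento array and lay between -0.39 and -0.11 over all 24 settings. E2F8 (-1.76, adjusted p = 0.0974), E2F2 (-1.15) and E2F7 (-1.02) were the lowest of those named, whereas RB1, not itself an E2F gene, had -0.06. Of the 7 CDK inhibitors, 2 had a change below 0. Both were lower at an unadjusted p under 0.05 (28.6%, beside 6.65% of all rows), and 0 were higher at that level. CDKN2A had -0.49 and CDKN1B -0.38, while CDKN1A had 0.34, with individual adjusted p no smaller than 0.263. The median of the list was 0.11, and it turned to -0.024 without the second Ento array and to -0.096 without replicate 2.

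Genes of mitosis also had medians below 0. In the mitotic kinase, kinesin and centromere lists, 0 genes had all Ento+AZD arrays below all Ento arrays, beside 7.15% of all rows. In the replication list there were 4 such genes of 32. Of 23 mitotic kinases and checkpoint, condensin and cohesion factors, 19 were lower at an unadjusted p under 0.05 and all 23 were lower in each pair, with a median of -0.79. Aurora kinase B (AURKB) lay at 8.77, 7.49 and 9.0 with Ento and at 7.77, 6.04 and 7.93 with Ento+AZD (-1.17, adjusted p = 0.0907). MELK had -1.22, Aurora kinase A (AURKA) -0.89 and Polo-like kinase PLK1 -1.06. The 13 mitotic kinesins had a median of -0.76 and 11 lower members, with -1.33 for KIF20A. The centromere list had a median of -0.67 and 16 lower members of 25, with -1.27 for HJURP, the chaperone of the centromeric histone. In the list of Fanconi anaemia and homologous recombination genes, 13 of 18 were lower, with FANCA at -1.05. The centrosome list was less uniform, with 11 of 25 lower and a median of -0.33, which was -0.54 without the second Ento array and -0.20 without the first. In bulk RNA, fewer dividing cells and less of these transcripts per cell cannot be told apart.

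**Figure D4:**
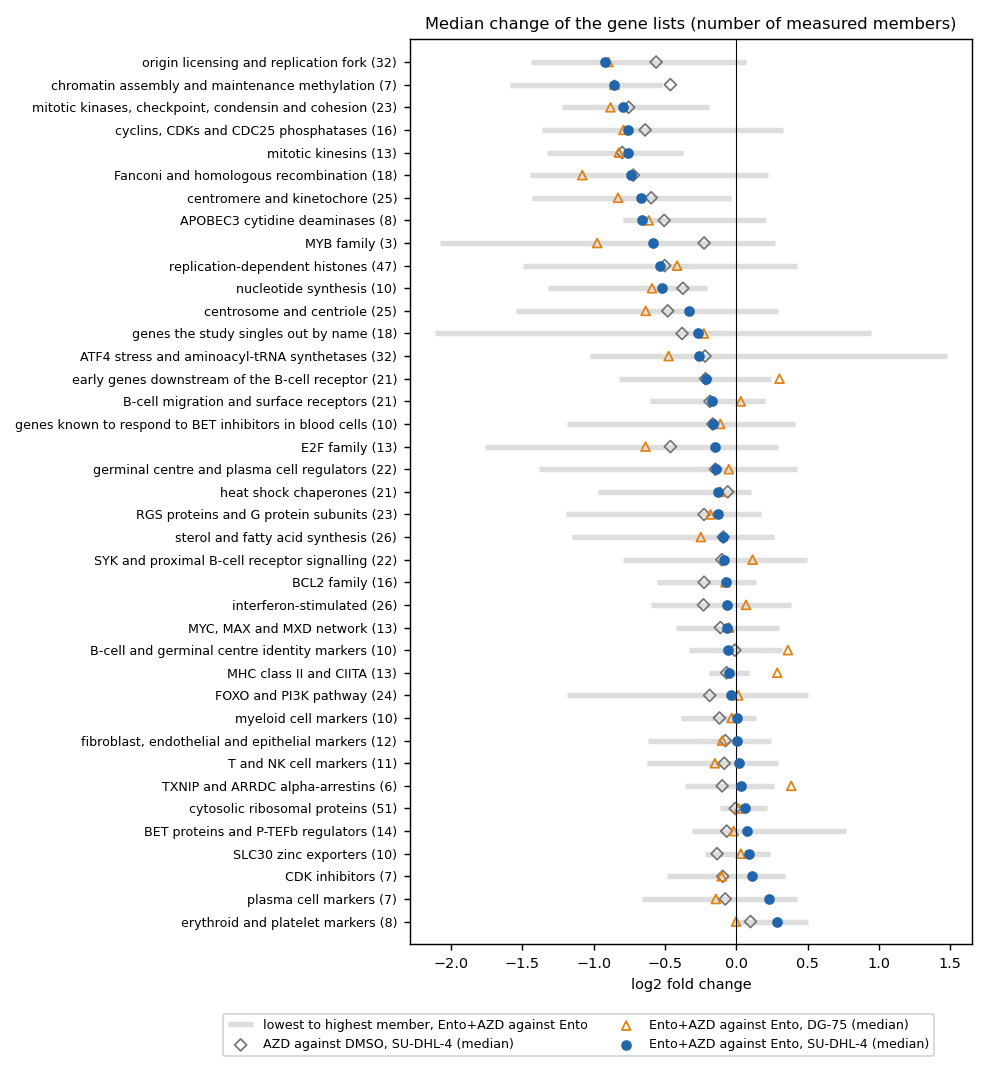
Median log2 fold change of 39 gene lists (x axis; number of measured members in brackets on the y axis) for Ento+AZD against Ento in SU-DHL-4 (filled circles), AZD against DMSO in SU-DHL-4 (diamonds) and Ento+AZD against Ento in DG-75 (triangles), with grey bars from the lowest to the highest member in the first comparison. Among the filled circles the replication list is lowest at -0.92, lists of cell division fill the top of the plot, and the ribosomal and BET lists lie near 0.

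No difference was detectable between the groups for the drug target transcripts given here. BRD2 had a log2 fold change of 0.00 (SE 0.16, adjusted p = 0.999) and BRD3 of 0.06 (SE 0.16, adjusted p = 0.952). SYK lay at 9.43, 9.54 and 9.23 with Ento and at 9.39, 9.45 and 9.24 with Ento+AZD. Of 14 BET proteins and P-TEFb regulators, 0 were lower and 1, the elongation factor ELL2, was higher at an unadjusted p under 0.05 (0.77, adjusted p = 0.383). HEXIM1, an inhibitor of P-TEFb whose transcript is used as a marker of BET inhibition, had -0.10 (SE 0.17, adjusted p = 0.923). SERPINI1, another such marker, had 0.10 (SE 0.22, adjusted p = 0.945). In DG-75, AZD added to Ento gave HEXIM1 a log2 fold change of 0.84 (limma adjusted p = 0.0348), below the fold change limit. SERPINI1 had 0.21 there (adjusted p = 0.723).

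MYC, a transcription factor often lowered by BET inhibitors, did not pass the test. Its levels were 9.38, 9.48 and 9.39 with Ento and 9.26, 9.07 and 8.98 with Ento+AZD. The groups did not overlap, but the log2 fold change of -0.31 (SE 0.14) had an adjusted p of 0.494. No other member of 13 genes of the MYC, MAX and MXD network was lower at an unadjusted p under 0.05, and the median was -0.07. IL7R, the interleukin 7 receptor, had the lowest value among 10 genes known to respond to BET inhibitors, at -1.19 (adjusted p = 0.262). Its arrays overlapped, with 4.18 to 6.36 for Ento and 3.13 to 4.75 for Ento+AZD. BCL2 (0.04) and BCL6 (0.04), which block cell death and plasma cell differentiation, were level between the groups within their SE of 0.16 and 0.14.

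In the list of SYK and proximal B-cell receptor signalling, 4 of 22 were lower and 1 was higher at an unadjusted p under 0.05, beside 6.65% and 3.03% of all rows, and the median was -0.08. The phosphatase PTPN6 had -0.79 (adjusted p = 0.149) and the exchange factor RASGRP3 had 0.50. Early genes downstream of the receptor had a median of -0.21 (-0.10 without the first Ento array), with 5 of 21 lower at that level, among them DUSP1 (-0.82), FOS (-0.51) and JUNB (-0.49). MHC class II genes had a median of -0.05 and no member that reached an unadjusted p under 0.05. Of 8 APOBEC3 and UNG genes, which deaminate cytidine or remove uracil from DNA, 5 were lower at that level with a median of -0.66, which was -0.42 without the first Ento array. APOBEC3G had -0.78 and UNG -0.69, with adjusted p of at least 0.131 in the list.

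The list of ATF4 targets and aminoacyl-tRNA synthetases held both SLC7A11 and TARS3, called in opposite directions. Of its 32 members, 12 (37.5%) were lower and 1, TARS3, was higher at an unadjusted p under 0.05, beside 6.65% and 3.03% of all rows, and the median was -0.26. Alanyl-tRNA synthetase AARS1 lay at 7.73 to 8.35 with Ento and at 7.32 to 7.72 with Ento+AZD (-0.56, adjusted p = 0.142), and the arginine transporter SLC7A1 had -0.61. Sterol and fatty acid genes had a median of -0.10, with ELOVL6, a fatty acid elongase, at -1.15 (adjusted p = 0.0817). The small heat shock protein HSPB1 had -0.97 (adjusted p = 0.0788) in a list of 21 chaperones with a median of -0.13. The 51 cytosolic ribosomal protein genes had a median of 0.06, and 0 of them reached an unadjusted p under 0.05.

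Markers of the line were present on all arrays. The 10 B-cell and germinal centre identity markers averaged 10.1 to 10.3 with Ento and 10.0 to 10.2 with Ento+AZD, and their median change was -0.06. T and NK cell markers averaged 3.99 to 4.07 and 3.95 to 4.11, and myeloid markers 4.13 to 4.32 and 4.09 to 4.28. The 12 fibroblast, endothelial and epithelial markers had a median of 0.01, and 6 of them had a change below 0. DCN, a matrix proteoglycan, was the 1 marker among them at an unadjusted p under 0.05, with a log2 fold change of -0.62 (adjusted p = 0.0931). Plasma cell markers averaged 6.49 to 6.59 with Ento and 6.40 to 6.75 with Ento+AZD. The 8 erythroid and platelet markers averaged 4.32 to 4.43 with Ento and 4.58 to 4.67 with Ento+AZD, without overlap, and 4.60 to 4.73 with DMSO. HBA1 was the only one of them past an unadjusted p under 0.05 (0.37, adjusted p = 0.412). The part of these genes in the other results was not tested. Array medians of the 12 SU-DHL-4 arrays lay between 4.89 and 5.13.

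AZD without Ento was examined on 6 other SU-DHL-4 arrays. Both comparisons came from the same fit of the 12 SU-DHL-4 arrays and shared its replicate block and its spread for each row. There, AZD against DMSO gave 46 called rows (0.18%), all of them lower. The count was 9 without the replicate block, and 0 after quantile normalization or median subtraction. Leaving out 1 array gave 0 calls for AZD replicate 1 or 3, any DMSO array or Ento+AZD replicate 1, 17 and 18 for Ento+AZD replicates 2 and 3, and 119 for AZD replicate 2. Of the 21 rows called with Ento present, 19 had the same sign without Ento, and 4 were called, GNB3, EPSTI1, KIAA0040 and CHI3L2. An unadjusted p under 0.05 with the same sign was found for 18 of the 21, beside 11.5% of all rows with either sign. As the spread is shared, rows called for a small spread are favoured here too. This count and the 4 calls are therefore not independent of the choice of rows. All 18 lower rows were also below 0 without Ento, with a median of -0.97 beside -1.31 with Ento, where the rows were chosen for a change beyond -1, and 63.9% of all rows were below 0 there. EPSTI1 had -1.88 without Ento and -1.66 with it, and GNB3 had -1.25 and -1.20. By contrast, UBE2Q2P2 (-0.10) and the PLGLB1 row (-0.03) showed no increase without Ento. Across all rows, both changes correlated at r = 0.364, and at 0.530 over the rows above the median level, in which genes are not independent and array handling may be shared.

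**Figure D5:**
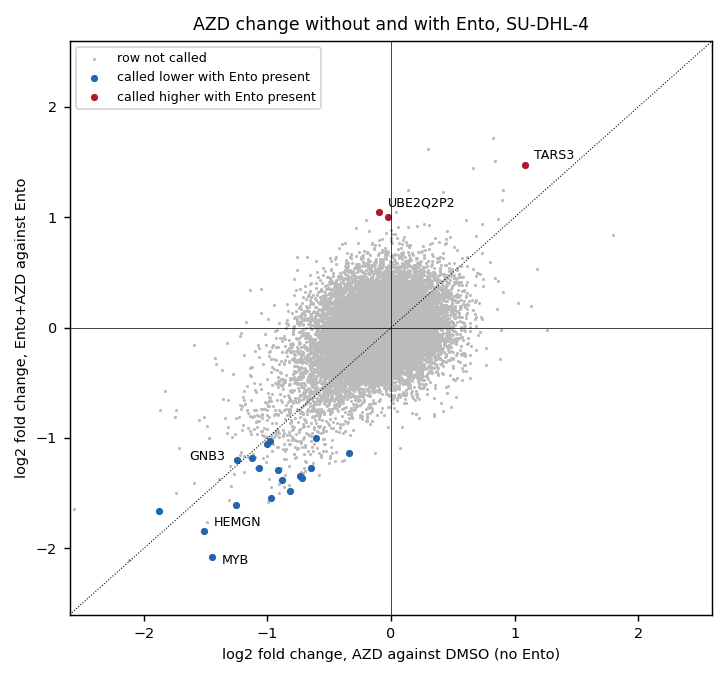
Log2 fold change of AZD against DMSO (x axis) and of Ento+AZD against Ento (y axis) in SU-DHL-4 for 25575 rows, with rows called in the second comparison in colour and a dotted line of equal change. The 18 lower rows lie below 0 on both axes, and of the 3 higher rows TARS3 is above 0 on both.

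Whether the AZD change depended on Ento was tested as the difference of both changes. Limma called 0 rows, with a smallest adjusted p of 0.960, and 1276 rows (4.99%) had an unadjusted p under 0.05. MYB had -2.08 with Ento and -1.45 without, a difference of -0.63 (SE 0.44), and MCM5 had a difference of -0.39 (SE 0.21). Among the called rows, the smallest unadjusted p belonged to UBE2Q2P2, with a difference of 1.15 (unadjusted p = 0.000329), the PLGLB1 row with 1.03 (unadjusted p = 0.000597) and ROCR with -0.79 (unadjusted p = 0.00391). As these rows were chosen for their change on 6 of the 12 arrays of this test, their unadjusted p is biased towards small values. The median difference was -0.37 for the replication list and -0.51 for the chromatin assembly list, beside 0.06 over all rows. For the mitotic kinase and centromere lists it was -0.13 and 0.00. With 3 arrays per group such differences have a median SE of 0.25, and a missing call does not show that the changes were equal.

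In DG-75, adding AZD to Ento gave 168 called rows (0.657%), 153 lower (0.598%) and 15 higher (0.0587%). The count was 0 without the first Ento or the first Ento+AZD array, 1 without the second Ento array, 4 without the second Ento+AZD array and 389 without the third Ento array. After quantile normalization the share of higher rows there was 21% of 124 calls, in place of 8.93%. In the DG-75 arrays the replicate numbers did not pair the samples, as correlations of 0.037, -0.104 and -0.355 showed. Of the 21 rows called in SU-DHL-4, 19 had the same sign, 9 also had an unadjusted p under 0.05 (beside 14.8% of all rows with either sign), and 6 were called, among them MYB (-1.49), MNS1 (-1.94), CDC25A (-1.56), CHI3L2 (-2.19) and KIAA0040 (-1.06). The median of the 18 lower rows, chosen for their change in SU-DHL-4, was -0.44 there, and 60.1% of all DG-75 rows were below 0. HEMGN (-0.01), DOCK10 (0.10), ROCR (-0.10) and GNB3 (-0.18) were close to 0 in DG-75. The 190 genes of the 9 lists had a median of -0.79 in DG-75, 186 of them were below 0, and 31 were called there. For the replication list alone, the DG-75 median was -0.90, beside -0.92 in the SU-DHL-4 comparison.

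A test of the difference between the lines called 7 rows (0.0274%), none of which was called in SU-DHL-4 itself. Without the replicate block 3 of the 7 were called, and with 1 replicate term for both lines also 3. ALDH1L2, a mitochondrial folate enzyme, had 0.02 here and -1.82 in DG-75, a difference of 1.84 (adjusted p = 0.0332). DUSP1, a phosphatase of MAP kinases, was the gene with a lower value in SU-DHL-4, with -0.82 against 0.69 in the other line (adjusted p = 0.044). HEMGN had the largest difference of the rows called in SU-DHL-4, -1.84 with an adjusted p of 0.0975, and did not pass. The split was 6 with a higher value in SU-DHL-4 and 1 with a lower one, and it was 1 and 1 after subtraction of array medians and 3 and 1 after quantile normalization. It turned to 0 and 9 without replicate 2 and to 2 and 7 without the second Ento+AZD array of DG-75, with 1 and 2 of the 7 rows among these.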

How the data were processed

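Total RNA of 24 samples, from 2 lines with 4 treatments and 3 replicates, was measured on Clariom D arrays. The deposited log2 values are RMA-normalized per the methods, with probes mapped to genes through affycoretools. The medians of the deposited arrays still differed, and another normalization of these values changed the counts of calls. The genome build of the array annotation is not given in the sources used here. The table held 25575 rows and 25161 symbols, and 0 columns of samples were left unused. A symbol with several rows is represented by the one with the highest mean.

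Groups came from the labels. Limma 3.58.1 (lmFit and eBayes; R 4.3.3) was fitted to the 12 arrays of a line, with treatment and replicate number as terms. The study's model has a batch term that it does not define, and the replicate number took its place. The line difference used all 24 arrays. Benjamini-Hochberg adjustment ran over all rows, and calls required an adjusted p below 0.05 together with a log2 change beyond 1 in size. Same-numbered arrays correlated above 0.1 in each SU-DHL-4 pair. The number of arrays limits the precision.

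Genes named are the called rows, the 10 uncalled rows per direction with the smallest p among those changed more than 2-fold with 1 sign in all pairs, of each list all members (8 or fewer) or the 4 with the smallest p and the 2 with the highest mean, the drug targets and known BET responders, and rows called between the lines. The 5 rows that passed the adjusted p alone, and single list members given as values, were named after their values were seen. The members, the 39 lists (658 of 663 genes measured) and the rule were chosen with earlier results of these data known. Some of the genes so selected are left out of the text. Alternatives changed the block, the arrays in the fit, the level filter, the normalization, the variance prior, the fold limit or the rows per symbol, or left out arrays. The scripts were tested on simulated data. Promoters are from RefSeq (GRCh38.p14).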

Additional observations from a re-analysis of the deposited data

Results flagged for a closer look

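In 7 genes the change from Ento to Ento+AZD differed between the lines, by an interaction test in limma over all 24 arrays. Values are log2 changes, and a positive difference means a higher value in SU-DHL-4. NRG4, a growth factor of the neuregulin family, differed by 2.20 (adjusted p = 0.0156), with 0.60 in SU-DHL-4 and -1.6 in the other line. CYP26A1, which degrades retinoic acid, differed by 2.67 (adjusted p = 0.0332), with 0.40 and -2.27. ALDH1L2, a mitochondrial folate enzyme, differed by 1.84, with 0.02 and -1.82. The transcription factor FOXP2 differed by 1.49, with 0.25 and -1.24. SPECC1 differed by 1.39, with 0.23 and -1.16. These 5 genes were called lower in DG-75 and were not called in SU-DHL-4. DUSP1 differed by -1.51, with -0.82 and 0.69, and was called in neither line. Without the replicate block, 3 of the 7 were called. The count was 0 without the first Ento array of either line, the first Ento+AZD array of either line, the second Ento array of DG-75 or the second Ento+AZD array of SU-DHL-4.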

How the results depend on the processing

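Ento+AZD against Ento in SU-DHL-4 gave 21 calls. The count was 0 without the replicate block (2001 rows at an unadjusted p under 0.05), 0 with only the groups compared (3234), 0 after quantile normalization (2782) and 0 with the treat test against a fold change of 1.2 (706). It was 90 with 1 fit of all 24 arrays, 70 without rows under the median level and 107 with a trended robust variance, and 19, 14 and 21 of the 21 rows were among these. Leaving out arrays or replicate numbers gave 0 to 75 calls. AZD against DMSO gave 46 calls, 9 without the replicate block, 0 with only the groups compared, 0 after quantile normalization, 0 after median subtraction, 105 with the trended robust variance, 0 with treat, and 0 to 119 with arrays left out. In DG-75 there were 168 calls, 172 without the replicate block, 0 with only the groups compared, 103 after median subtraction, 424 without a fold limit, 4 with treat, and 0 to 389 with arrays left out. The test of whether the AZD change depended on Ento had 0 calls in every alternative, with 355 to 2153 rows at an unadjusted p under 0.05. The line difference had 7 calls, 3 without the replicate block, 3 with 1 replicate term for both lines, 0 with only the groups compared, 4 with the level filter, 4 after quantile normalization, 2 after median subtraction, 18 with the trended robust variance, 1 with treat, and 0 to 18 with arrays left out. The cause of these moves was not tested.

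List medians near 0 took both signs over 24 settings, from -0.10 to 0.048 for B-cell identity markers, -0.08 to 0.051 for MHC class II, -0.13 to 0.037 for the MYC network, -0.12 to 0.014 for SYK signalling, -0.16 to 0.011 for sterol genes, -0.0023 to 0.18 for BET proteins, -0.10 to 0.12 for fibroblast, endothelial and epithelial markers and -0.10 to 0.24 for CDK inhibitors. Those of the interferon list lay between -0.17 and -0.0034, of chaperones between -0.21 and -0.023 and of ribosomal proteins between 0.043 and 0.11. The median of the replication list lay between -1.04 and -0.75 over 24 settings and that of the mitotic kinase list between -1.0 and -0.54. Over 100 rows named in the text, 20 of 2479 values had the opposite sign, in 8 genes that were not called under any of these settings. After quantile normalization RB1 had 0.035, SYK 0.061 and ALDH1L2 -0.0082. With arrays left out, RB1 ranged from -0.15 to 0.0065, SYK from -0.091 to 0.018, BRD2 from -0.11 to 0.13, HEXIM1 from -0.28 to 0.016, SERPINI1 from -0.17 to 0.30, BCL2 from -0.022 to 0.096, BCL6 from -0.066 to 0.11 and ALDH1L2 from -0.19 to 0.14. Over all 248 rows of the naming rule, 97 of 6158 values had the opposite sign, in 35 rows with an adjusted p of at least 0.816.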
